A study of Mus musculus with 9 samples.

Results

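Ppara, the gene of the fatty acid receptor PPARα, and 8 genes it is known to control in mouse liver were followed in 3 groups of liver RNA. The 9 genes were taken by name: Ppara itself, the cytochrome P450 genes Cyp4a10, Cyp4a14 and Cyp4a31, and the lipid enzyme genes Acaa1b, Acot1, Ehhadh, Cpt1a and Pdk4. All 9 were on the array and passed the filter on dim probes, with 13 probes, out of 16802 genes and 24289 probes tested. The livers came from male C57BL/6 mice aged 3 months, and each group had 3 single-colour Agilent arrays. The first group was wild type and untreated. The second received AAV-GFP, an adeno-associated virus that carries green fluorescent protein and serves as the vector control. The third received AAV-hGRβ (AAV-hGRB in the labels), the same kind of virus carrying human GRβ, a splice form of the glucocorticoid receptor that differs at its end from the hormone-binding form GRα. The labels used here give no dose, time after injection, serotype or promoter for either virus, and they do not say that replicates are separate animals, so p-values measure the spread between these samples, which may be technical.

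PPARα is a nuclear receptor that binds fatty acids and pairs with the retinoid X receptor on DNA elements made of a repeated hexamer. In hepatocytes it is best known for the fasting response, in which it raises genes for fatty acid oxidation in peroxisomes and mitochondria and for ketone body synthesis. The Cyp4a genes, which encode microsomal ω-hydroxylases of fatty acids, are among its most responsive targets in rodents. Glucocorticoids act on the same metabolic state, and Pdk4 is a known target of both receptors.

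The Cyp4a genes are close relatives in a cluster on chromosome 4, so the probe sequences decide what each value measures. A Cyp4a10 probe in coding sequence and a Cyp4a31 probe annotated for that gene alone are shown whole. Of the brighter Cyp4a31 probe, which the files also annotate for Cyp4a10, the last 30 bases are shown, with the hexamer AATAAA of the polyadenylation signal in capitals. The array files place these probes on build mm7, and each sequence is given 5′ to 3′.
Cyp4a10, chr4:114901988-114902047: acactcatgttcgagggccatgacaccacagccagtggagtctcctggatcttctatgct
Cyp4a31 alone, chr4:114946658-114946717: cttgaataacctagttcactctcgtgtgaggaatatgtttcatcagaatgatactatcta
Cyp4a31 and Cyp4a10, chr4:114955400-114955459: AATAAAgttcccagtgtcatgcacaaaaaa

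Promoters, from 250 bases before to 50 bases after the start of the gene, were found in RefSeq (GRCm38.p6) for 6 of the 9 genes: Ppara, Acaa1b, Acot1, Cpt1a, Ehhadh and Pdk4. The PPAR response element was searched on both strands as the hexamer AGGTCA repeated with any single base between the copies, in a relaxed form with AGGNCA in place of each copy, and as the hexamer AGGTCA alone, which lies within the first form. Neither long form occurred in the 6 windows, against 0.0399% and 0.384% of all 32544 promoters of this length. At shares this low, absence from 6 windows could not set these genes apart from others. No window of a Cyp4a gene was searched. The hexamer occurred in 1 window, that of Cpt1a, at positions -94 to -89 on the minus strand, and in 16.2% of all promoters. The windows of Acaa1b and Cpt1a are shown, with the match in capitals. In the tests below Acaa1b passed as lower in AAV-hGRβ than in untreated liver, but not against AAV-GFP. Cpt1a passed in no comparison.
Acaa1b, chr9:119157044-119157343, minus strand: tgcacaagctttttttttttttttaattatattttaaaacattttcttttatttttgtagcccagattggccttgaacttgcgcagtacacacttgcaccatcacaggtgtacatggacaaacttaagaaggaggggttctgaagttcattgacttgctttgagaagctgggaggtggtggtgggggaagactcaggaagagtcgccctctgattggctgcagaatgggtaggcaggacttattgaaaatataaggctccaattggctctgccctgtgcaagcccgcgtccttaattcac
Cpt1a, chr19:3323051-3323350, plus strand: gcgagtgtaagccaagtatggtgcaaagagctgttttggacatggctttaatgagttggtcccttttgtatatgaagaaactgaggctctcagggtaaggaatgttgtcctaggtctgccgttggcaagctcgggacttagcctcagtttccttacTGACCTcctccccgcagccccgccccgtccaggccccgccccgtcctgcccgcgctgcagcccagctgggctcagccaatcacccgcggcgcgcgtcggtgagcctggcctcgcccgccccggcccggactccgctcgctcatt

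Each value below is log2 of the background-corrected probe intensity minus the 75th percentile of its array, so 0 lies at that percentile. A difference is between group means on this scale, with its SE and a p-value from limma fitted over all genes and adjusted by the Benjamini-Hochberg method, and a gene was called at an adjusted p under 0.05. Between 54.0% and 82.0% of gene spots per array were well above background. Arrays of a group correlated at 0.973 to 0.988 over all genes, and arrays of different groups at 0.950 to 0.989. They were scanned on 2 days: untreated replicate 2, AAV-GFP replicate 3 and AAV-hGRβ replicate 1 on day 2 and the other 6 on day 1. They lay on 5 slides, and 4 of those slides held arrays of a single group. The remaining slide held AAV-GFP replicate 3 and AAV-hGRβ replicate 1. The day 2 differences between those groups are thus the only ones from within a slide. All other differences between groups are also differences between slides, and the part of the slide in them cannot be told apart.

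The Cyp4a genes and the peroxisomal thiolase gene Acaa1b were lower in AAV-hGRβ liver than in untreated liver, by 2.60-fold to 3.21-fold. These were 4 of the 9 genes, where 0.750% of all genes tested were called lower in that comparison and 3.24% in either direction. Cyp4a31 was read by a probe also annotated for Cyp4a10, and the number was 3 with the probe annotated for Cyp4a31 alone. Against AAV-GFP none of the 9 was called by limma, where 0.0774% of all genes were called lower and 0.905% in either direction. At an unadjusted p under 0.05, 6 of the 9 were lower against AAV-GFP, beside 3.29% of all genes, and 7 of the 9 against untreated liver, beside 10.8%. All 9 differences lay below 0 in both comparisons, with medians of -1.01 against AAV-GFP and -1.10 against untreated liver, beside 0.03 and 0.10 over all genes. Those signs were not common to every setting: with plain normexp background correction 4 differences against AAV-GFP and 1 against untreated liver lay above 0. The comparisons share the AAV-hGRβ arrays, so they are not independent of each other. The 9 genes and the lists below were chosen with earlier results of these data known. Counts set beside the shares of all genes therefore describe these genes and are no test of them.

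In whole-liver RNA, fewer cells of a type and less RNA per cell cannot be told apart. None of the 10 hepatocyte marker genes tested was called in any comparison, and their summed level, in units of the 75th percentile, ran from 3204 to 4699 in untreated, 3772 to 5434 in AAV-GFP and 3316 to 4271 in AAV-hGRβ liver. The 14 T and NK cell markers summed to between 2.82 and 3.25, 3.04 and 3.54, and 6.43 and 14.5 in the same order, and the 12 Kupffer cell and macrophage markers to between 51.1 and 67.8, 52.4 and 101, and 108 and 171. The T and NK cell sum was thus higher on every AAV-hGRβ array than on any other. The Kupffer cell and macrophage sums were ordered alike, but the marker Marco had no usable value on AAV-GFP replicate 3. The sum of that array leaves Marco out and is too low by an unknown amount, so that order is not settled. Against AAV-GFP 4 of the 14 T and NK cell markers and 0 of the 12 Kupffer cell and macrophage markers were called higher by limma. Of the latter, Clec4f, C1qc and Ptprc had an unadjusted p under 0.05. Ptprc is expressed in leukocytes in general, so its rise is not particular to macrophages. The part of these cell types in the lower values of the PPARα targets was not tested.

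**Figure D1:**
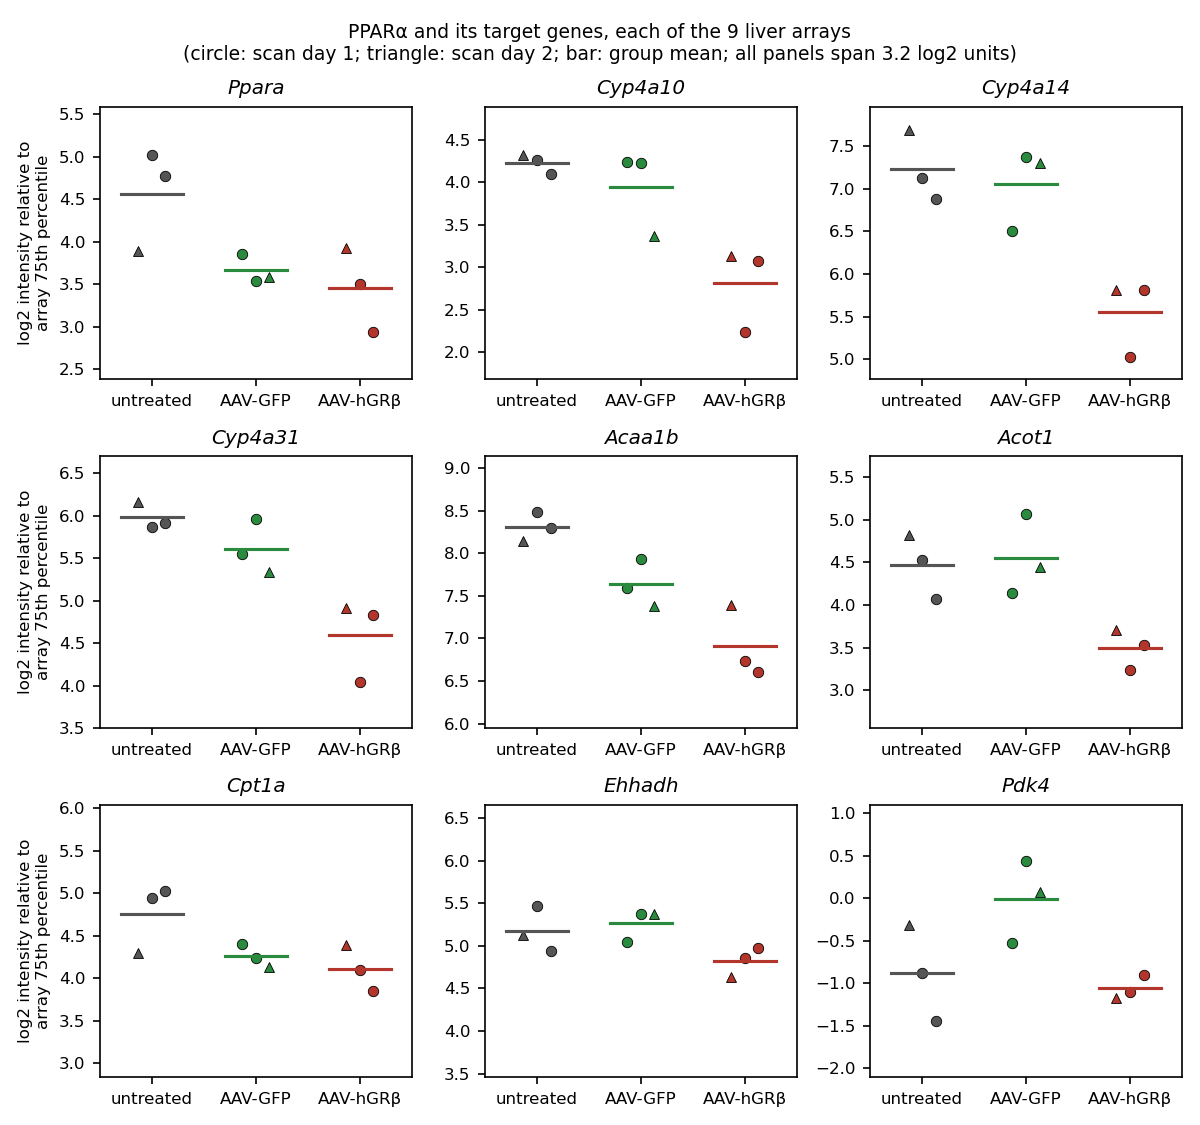
Level of each of the 9 genes on each array, as log2 intensity relative to the array's 75th percentile, by group, with the group mean as a bar, circles for scan day 1 and triangles for scan day 2. The 3 AAV-hGRβ arrays lie below all 6 other arrays for Cyp4a10, Cyp4a14, Cyp4a31 and Acot1, while Ppara and Cpt1a are high on 2 untreated arrays.

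Ppara, the receptor, was read by a single probe that the array carries in 9 or 10 usable copies, whose log2 values differed with an SD of 0.03 to 0.27 within an array. It read 3.89, 5.02 and 4.77 on untreated replicates 2, 3 and 4, 3.86, 3.54 and 3.59 on AAV-GFP replicates 1 to 3, and 3.92, 3.50 and 2.94 on AAV-hGRβ replicates 1 to 3. The 2 highest values were those of untreated replicates 3 and 4, which shared slide and scan day, and the remaining untreated array lay beside the treated ones. The difference from untreated liver was -1.10 (SE 0.33, adjusted p = 0.0995) for AAV-hGRβ and -0.89 (SE 0.33, adjusted p = 0.491) for AAV-GFP, and neither passed. AAV-hGRβ and AAV-GFP differed by -0.21, with a 95% confidence interval from -0.97 to 0.55. Within scan day 1 the difference of AAV-hGRβ from untreated liver was -1.67, and on day 2, with 1 array per group, it was 0.03.

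Cyp4a14, an inducible fatty acid ω-hydroxylase, had the largest differences of the 9 genes in both AAV-hGRβ comparisons. It read 7.70, 7.13 and 6.88 in untreated, 6.51, 7.37 and 7.31 in AAV-GFP and 5.81, 5.03 and 5.81 in AAV-hGRβ liver. All AAV-hGRβ arrays lay below all others, by at least 0.70 against AAV-GFP and 1.06 against untreated liver. It fell by 1.68 against untreated liver (SE 0.33, 3.21-fold lower, adjusted p = 0.0378). Against AAV-GFP the difference was -1.51 (SE 0.33, 95% confidence interval -2.27 to -0.76), and its adjusted p of 0.0926 missed the threshold. That difference was -1.52 within scan day 1 and -1.49 within day 2, and its adjusted p was 0.0438 with scan day as a block and 0.0129 with array medians as the scale, which moved the median of all genes to -0.33. In the other alternatives with a test its adjusted p ran from 0.0514 to 0.597, with 0.198 for slide as a random block, 0.143 in a fit of the 6 arrays compared, 0.284 without the filter on dim probes and 0.597 with plain normexp correction, where the difference was -0.76. AAV-GFP and untreated liver differed by -0.17 (95% confidence interval -0.93 to 0.58).

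Cyp4a10, the hydroxylase often used as a readout of PPARα activity, read 4.33, 4.26 and 4.10 in untreated, 4.23, 4.23 and 3.37 in AAV-GFP and 3.14, 2.24 and 3.08 in AAV-hGRβ liver. The AAV-hGRβ arrays again lay below all others, but AAV-GFP replicate 3 came within 0.23 of the highest of them. Cyp4a10 fell by 1.41 against untreated liver (SE 0.31, 2.66-fold lower, adjusted p = 0.0482). The difference from AAV-GFP was -1.13 (SE 0.31, adjusted p = 0.182), being -1.57 on scan day 1 and -0.23 on day 2. Between AAV-GFP and untreated liver it was -0.28 (95% confidence interval -0.98 to 0.42).

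The other Cyp4a10 probes also had their lowest mean in AAV-hGRβ liver, with other sizes, and on the third and dimmest probe AAV-GFP liver was the highest group by mean (0.52 beside 0.41 in untreated liver). The coding probe printed above read 3.88, 4.12 and 4.07 in untreated, 4.19, 3.95 and 3.04 in AAV-GFP and 3.32, 2.81 and 3.11 in AAV-hGRβ liver. There AAV-GFP replicate 3 fell among the AAV-hGRβ arrays. Its difference from untreated liver was -0.94 (adjusted p = 0.111 over all probes), and that of the dimmest probe was -1.36 (adjusted p = 0.119). The call for Cyp4a10 therefore rests on its brightest probe, which had an adjusted p of 0.0529 when all probes were fitted singly.

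Cyp4a31 was represented by the probe that is also annotated for Cyp4a10, so RNA of either gene may contribute to its signal. That probe read 6.16, 5.87 and 5.91 in untreated, 5.54, 5.96 and 5.33 in AAV-GFP and 4.92, 4.04 and 4.84 in AAV-hGRβ liver, with no overlap between AAV-hGRβ and either other group. It fell by 1.38 against untreated liver (SE 0.27, 2.60-fold lower, adjusted p = 0.0369), and its difference from AAV-GFP was -1.01 (SE 0.27, adjusted p = 0.168). The probe annotated for Cyp4a31 alone was far dimmer. It read -2.24, -1.04 and -1.29 in untreated, -0.82, -1.07 and -2.50 in AAV-GFP and -2.88, -3.74 and -2.58 in AAV-hGRβ liver. The AAV-hGRβ arrays were lowest there too, with a difference from untreated liver of -1.54 (adjusted p = 0.118), so no call for Cyp4a31 stood on a probe of its own. On that probe the day 2 arrays of the untreated and AAV-GFP groups were the lowest of their groups.

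**Figure D2:**
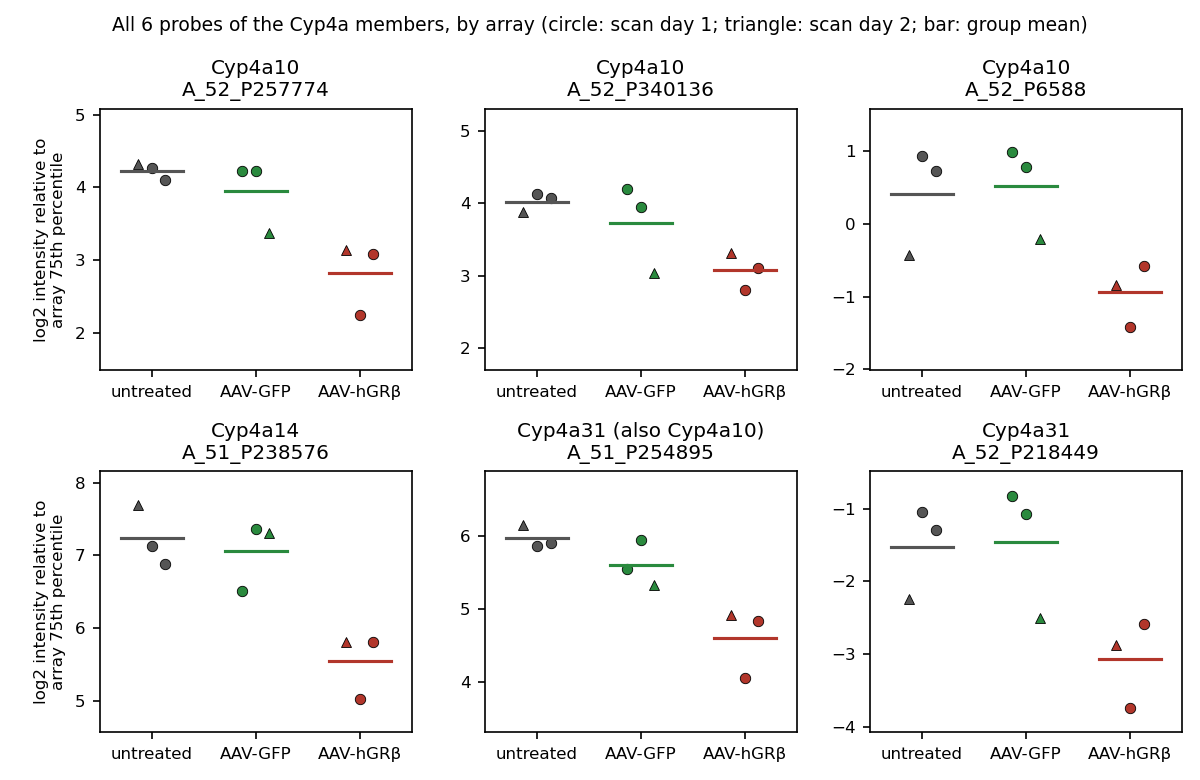
All 6 probes of Cyp4a10, Cyp4a14 and Cyp4a31 on each array, as log2 intensity relative to the array's 75th percentile, by group, with group means as bars and scan days as circles (day 1) and triangles (day 2). AAV-hGRβ arrays were lowest on 5 of the probes, and on the coding probe of Cyp4a10 the AAV-GFP array of day 2 lay among them.

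Acaa1b encodes a peroxisomal ketoacyl-CoA thiolase, which carries out the last step of peroxisomal β-oxidation. It read 8.14, 8.49 and 8.30 in untreated, 7.60, 7.94 and 7.38 in AAV-GFP and 7.39, 6.74 and 6.60 in AAV-hGRβ liver. The groups stepped down in that order: AAV-GFP lay below untreated liver without overlap, by at least 0.20, and AAV-hGRβ overlapped AAV-GFP by its replicate 1 alone. Acaa1b fell by 1.40 between untreated and AAV-hGRβ liver (SE 0.25, 2.64-fold lower, adjusted p = 0.0270). The difference of AAV-GFP from untreated liver was -0.67 (SE 0.25, adjusted p = 0.491) and that of AAV-hGRβ from AAV-GFP was -0.73 (SE 0.25, adjusted p = 0.280), so neither neighbouring step passed. The second step was -1.10 on scan day 1 and 0.01 on day 2.

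Acaa1a, the closest relative of Acaa1b, has 3 probes that disagreed. The probe that the files annotate for both genes differed by -1.14 between AAV-hGRβ and untreated liver (adjusted p = 0.0389 over all probes). The 2 probes annotated for Acaa1a alone gave -0.14 (adjusted p = 0.634) and -0.96 (adjusted p = 0.0616). The brightest of these, which stood for the gene, read between 7.51 and 7.98 on all 9 arrays.

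Acot1, a cytosolic thioesterase that releases fatty acids from coenzyme A, read 4.82, 4.53 and 4.08 in untreated, 4.14, 5.07 and 4.44 in AAV-GFP and 3.71, 3.24 and 3.53 in AAV-hGRβ liver. The AAV-hGRβ arrays lay below all others, by at least 0.37, and the other groups overlapped throughout. The difference was -1.06 against AAV-GFP (SE 0.29, adjusted p = 0.174) and -0.98 against untreated liver (SE 0.29, adjusted p = 0.0905), so neither passed. AAV-GFP and untreated liver differed by 0.07 (95% confidence interval -0.57 to 0.72).

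Ehhadh, the bifunctional enzyme of peroxisomal β-oxidation, varied least, over 0.84 log2 units across the 9 arrays, against 2.67 for Cyp4a14. It read 5.13, 5.47 and 4.94 in untreated, 5.04, 5.38 and 5.38 in AAV-GFP and 4.64, 4.86 and 4.98 in AAV-hGRβ liver. AAV-hGRβ lay just below AAV-GFP, by at least 0.06, and overlapped untreated liver. The differences were -0.44 (95% confidence interval -0.89 to 0.01, adjusted p = 0.438) and -0.36 (-0.81 to 0.09, adjusted p = 0.276).

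Cpt1a encodes the carnitine palmitoyltransferase that admits fatty acids to mitochondria. Its main probe, present in 10 copies, read 4.30, 4.94 and 5.02 in untreated, 4.40, 4.24 and 4.13 in AAV-GFP and 4.39, 4.10 and 3.85 in AAV-hGRβ liver. As for Ppara, only untreated replicates 3 and 4 stood above the other 7 arrays, and the treated groups overlapped. AAV-hGRβ differed from AAV-GFP by -0.14 (95% confidence interval -0.68 to 0.39) and from untreated liver by -0.64 (SE 0.24, adjusted p = 0.146), the latter being -1.01 on scan day 1 and 0.10 on day 2. Its second and dimmer probe differed by -0.38 from untreated liver (adjusted p = 0.229 over all probes).

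Pdk4, the kinase that shuts pyruvate dehydrogenase when fat is burned, followed another order. It read -0.32, -0.87 and -1.45 in untreated, -0.53, 0.44 and 0.07 in AAV-GFP and -1.17, -1.10 and -0.91 in AAV-hGRβ liver. AAV-GFP was the highest group, lay above AAV-hGRβ without overlap and overlapped untreated liver, while AAV-hGRβ and untreated liver overlapped. The differences were 0.87 for AAV-GFP against untreated liver (SE 0.32, adjusted p = 0.491), -1.05 for AAV-hGRβ against AAV-GFP (SE 0.32, adjusted p = 0.236) and -0.18 for AAV-hGRβ against untreated liver (SE 0.32, adjusted p = 0.736). None passed, and leaving out untreated replicate 2 turned the last one to 0.10.

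**Figure D3:**
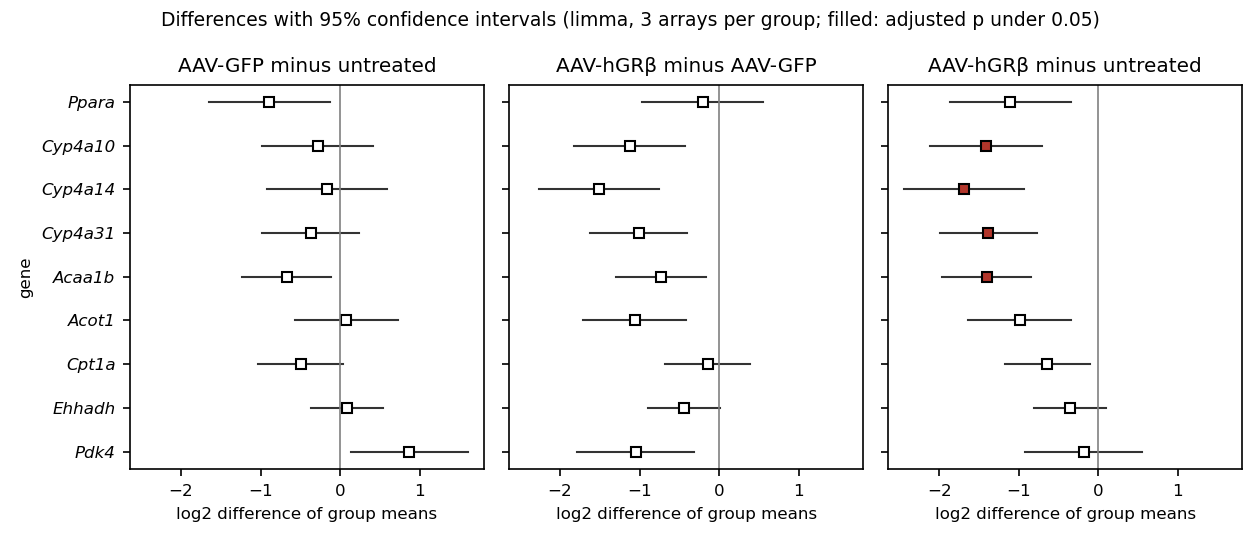
Log2 differences of group means for the 9 genes in the 3 comparisons, with 95% confidence intervals from limma and filled squares for an adjusted p under 0.05. The only filled squares are those of Cyp4a10, Cyp4a14, Cyp4a31 and Acaa1b in AAV-hGRβ minus untreated liver, from -1.38 to -1.68.

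Between the control groups the 9 genes moved in different directions. None was called between AAV-GFP and untreated liver by limma, as for all 16802 genes, of which 0% were called and 9.75% had an unadjusted p under 0.05. At that level Ppara and Acaa1b were lower and Pdk4 was higher. Without overlap, 2 of the 9 were lower in AAV-GFP, beside 9.03% of all genes. The 9 genes had a median difference of -0.28, beside 0.04 over all genes, and 6 lay below 0. Without overlap, 6 of the 9 were lower in AAV-hGRβ than in AAV-GFP, beside 6.31% of all genes, and 5 of the 9 than in untreated liver, beside 14.2%.

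The 4 calls against untreated liver did not hold at the threshold in several settings. With slide as a random block their adjusted p ran from 0.199 to 0.298, with plain normexp correction from 0.276 to 0.687 and without the filter on dim probes from 0.107 to 0.156. None of the 4 passed when untreated replicate 3 (adjusted p from 0.118 to 0.167), untreated replicate 4 (0.0868 to 0.160), AAV-hGRβ replicate 2 (0.0642 to 0.0982) or AAV-hGRβ replicate 3 (0.110 to 0.144) was left out. Only 1 passed without AAV-GFP replicate 2 and 2 without AAV-hGRβ replicate 1. The 4 differences stayed below 0 in all 25 alternatives, with Cyp4a14 between -2.04 and -1.11 and Acaa1b between -1.75 and -0.75.

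Genes whose profile over the 9 arrays lay nearest to that of a member, by the root mean square difference of centred log2 values, were named as a description. Nearest to Cyp4a10 were Cyp4a31 at 0.17, Camk2n2 at 0.23 and Vldlr at 0.24, where Cyp4a10 itself had an SD of 0.74 over the arrays. Cyp4a31 was read there by a different probe, which is also annotated for Cyp4a10. Nearest to Cyp4a14 (SD 0.89) were Cyp4a31 at 0.34, Acot1 at 0.35 and Clstn2 at 0.40. Ppara (SD 0.64) had Apbb2 at 0.12 and Slc22a23 at 0.14 as neighbours, and Cpt1a (SD 0.38) had Ube4b at 0.05, Gnaq at 0.06 and Sf1 at 0.07.

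The wider PPAR pathway was read through 7 lists with 138 tested genes that are not among the 9. Only Retsat was called, in both AAV-hGRβ comparisons. Below 0 lay 112 of the 138 against AAV-GFP, or 81.2% beside 46.4% of all genes, and 97 of the 138 against untreated liver, or 70.3% beside 42.8%. Their median differences were small, -0.21 and -0.23, beside 0.03 and 0.10 over all genes. Against AAV-GFP the 10 hepatocyte markers (median -0.24) and the 8 endothelial cell markers (median -0.23) all lay below 0 as well, and against untreated liver 4 of the 10 and 5 of the 8 did. Between AAV-GFP and untreated liver 50.7% lay below 0, beside 46.4%.

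Retsat encodes retinol saturase, an enzyme of retinoid metabolism known as a PPAR target. It read 5.84, 5.69 and 5.65 in untreated, 5.60, 5.87 and 5.64 in AAV-GFP and 4.84, 4.93 and 4.75 in AAV-hGRβ liver. The AAV-hGRβ arrays lay below all others and the control groups overlapped. It fell by 0.86 against AAV-GFP (SE 0.15, adjusted p = 0.0447) and by 0.88 against untreated liver (SE 0.15, adjusted p = 0.0259). No gene at all was called lower against AAV-GFP with plain normexp correction, within scan day 1 or with a replicate block. Against untreated liver the same held with plain normexp correction and with a replicate block. The calls of Retsat therefore did not hold in those settings. The 38 other genes of its list, of lipid droplets, lipoproteins and secreted targets, did not pass, and the list had medians of -0.19 and -0.30. Among them the monoglyceride lipase gene Mgll differed by -0.64 against AAV-GFP (adjusted p = 0.206). The lipoprotein receptor gene Vldlr differed by -0.92 (adjusted p = 0.209) and the hepatic lipase gene Lipc by -0.77 (adjusted p = 0.248). The list did not move in a single direction: against AAV-GFP 29 of its genes lay below 0 and 10 above, from -0.92 to 1.585. The highest were Fgf21 at 1.585 (adjusted p = 0.268) and Cidec at 1.49 (adjusted p = 0.329), neither of them called. Against untreated liver Fgf21 differed by 1.08 (adjusted p = 0.229) and Cidec by -0.02 (adjusted p = 0.989).

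Of 17 tested receptors, partners and coregulators none was called, with medians of -0.15 against AAV-GFP and -0.54 against untreated liver. Ppargc1a, the coactivator PGC-1α, differed by -0.65 against AAV-GFP (adjusted p = 0.335), the fasting factor gene Creb3l3 by -0.37 (adjusted p = 0.468) and the related receptor gene Pparg by 0.20 (adjusted p = 0.750). The median between AAV-GFP and untreated liver was -0.46, and 7 of the 17 were lower there without overlap, beside 9.03% of all genes.

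Of the other CYP4 genes, 11 of 17 were on the array and 10 were tested, and none was called. Their medians were -0.27 against AAV-GFP and -0.32 against untreated liver. Cyp4f16 was the member of that list with the smallest p and lay on the other side, at 0.59 (adjusted p = 0.281), while Cyp4f13 differed by -0.56 (adjusted p = 0.357) and Cyp4f14 by -0.36 (adjusted p = 0.480). Cyp4a12a, a male-biased hydroxylase whose 2 probes are also annotated for Cyp4a12b, had probe differences of -0.22 and -0.35 against AAV-GFP and -0.89 and -0.95 against untreated liver, none past the threshold.

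The 25 tested genes of peroxisomal β-oxidation held no call, with 22 below 0 against AAV-GFP and a median of -0.19. Eci3, an enoyl-CoA isomerase, differed by -0.48 (adjusted p = 0.264), the carnitine acetyltransferase gene Crat by -0.59 (adjusted p = 0.354) and the fatty acyl-CoA transporter gene Abcd2, well above background on only 1 AAV-hGRβ array, by -1.30 (adjusted p = 0.374). Crat came closest to the threshold against untreated liver, with -1.02 (adjusted p = 0.0515). Of the 23 tested genes on the list of mitochondrial β-oxidation, 22 lay below 0 against AAV-GFP. The list had a narrow range from -0.51 to 0.32 and a median of -0.30. Its lower end was Pdk1, a pyruvate dehydrogenase kinase like Pdk4 and no enzyme of β-oxidation itself. Etfdh, Pdk1 and Hadhb had the smallest p there, with differences of -0.43, -0.51 and -0.33 and adjusted p from 0.421 to 0.462.

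The 6 ketogenesis genes also held no call, with medians of -0.12 against AAV-GFP and 0.12 against untreated liver. Bdh1, which interconverts the ketone bodies, differed by -0.10 against AAV-GFP (adjusted p = 0.897). Of 18 genes of fatty acid uptake, binding and activation none was called, and the median was -0.26 against AAV-GFP. The ligases Acsl1 and Acsl3 and the medium-chain ligase Acsm3 had the smallest p, with differences of -0.62, -0.53 and -0.44 (adjusted p = 0.264, 0.371 and 0.480).

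**Figure D4:**
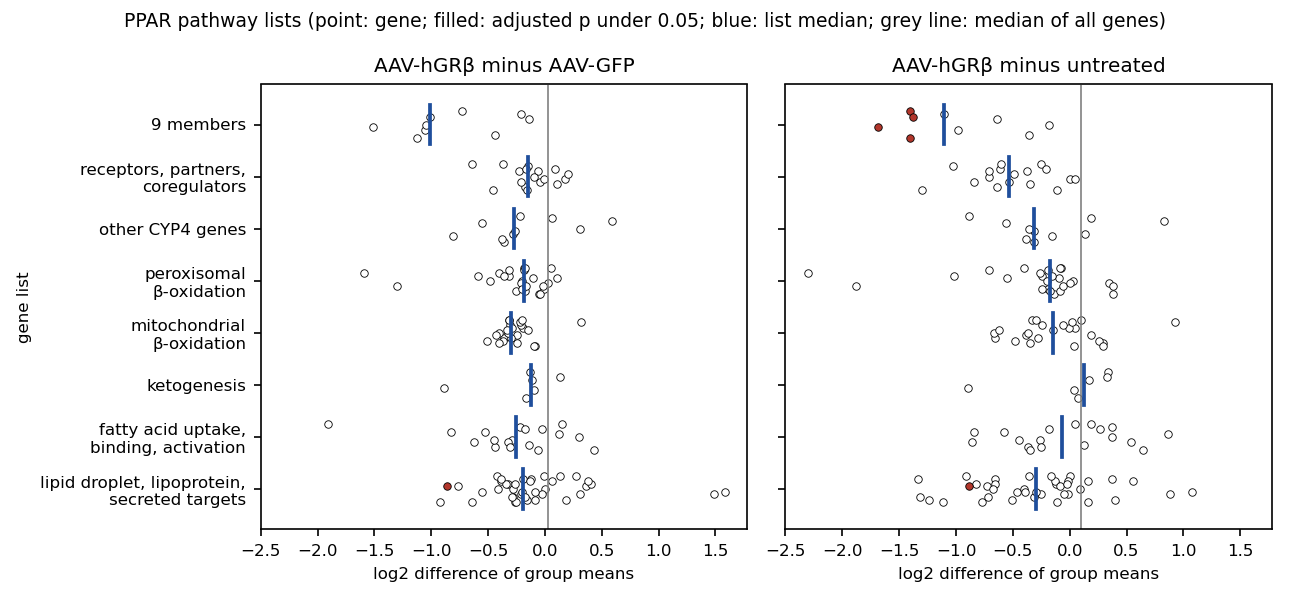
Log2 differences of AAV-hGRβ against AAV-GFP and against untreated liver for the 9 genes and for the tested genes of 7 PPAR pathway lists, with list medians in blue, the median of all genes as a grey line and filled points for an adjusted p under 0.05. The medians of the 7 lists against AAV-GFP lie between -0.30 and -0.12, that of the 9 genes at -1.01.

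As the delivered protein is a form of the glucocorticoid receptor, 17 glucocorticoid-induced genes were read beside the 9. Pdk4 belongs to both sets. Tat, the tyrosine aminotransferase gene, was the only one called. It fell by 1.27 against untreated liver (SE 0.27, adjusted p = 0.0448) and differed by -1.10 against AAV-GFP (adjusted p = 0.133). The gluconeogenic genes G6pc and Pck1 differed by -0.77 and -0.70 against AAV-GFP (adjusted p = 0.278 and 0.420). The list had a median of -0.35 against AAV-GFP, -0.19 against untreated liver and 0.21 between the control groups.

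Immune genes moved on the same arrays. Of 19 interferon-stimulated genes 15 rose against AAV-GFP and 17 against untreated liver, with medians of 1.86 and 2.35. Oas1a rose by 3.25, Irf7 by 2.65, Ifi44 by 4.24, Oasl2 by 3.56 and Ifit1 by 2.37 against AAV-GFP (limma adjusted p from 0.00305 to 0.00694), and Usp18, Isg15 and Ifit3 rose by 2.16, 3.11 and 2.47. Of 14 T and NK cell markers 4 rose against AAV-GFP, namely Cd8a, Gzma, Gzmb and Nkg7, and 6 against untreated liver. Cd8a was not well above background on any control array and was so on all 3 AAV-hGRβ arrays. Lck, Cd4 and Klrd1 did not pass against AAV-GFP (1.63, 0.71 and 1.98).

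Of 12 Kupffer cell and macrophage markers Clec4f rose by 1.18 against untreated liver (adjusted p = 0.0378). Against AAV-GFP Clec4f differed by 0.73 (adjusted p = 0.250), C1qc by 0.62 and the general leukocyte gene Ptprc by 1.25, all without passing. The hepatocyte markers with the smallest p were Apob, Cyp2e1 and Apoh, at -0.65, -0.39 and -0.30 against AAV-GFP (adjusted p from 0.409 to 0.490), and the list had a median of -0.24. No marker passed in any comparison among 4 of B cells, 5 of neutrophils, 8 of endothelium, 8 of stellate cells, 5 of cholangiocytes and 3 of fat and muscle, with medians against AAV-GFP of 0.60, 1.09, -0.23, -0.10, 0.34 and -1.25. The muscle marker Acta1 read 3.82 on AAV-GFP replicate 1 and between -5.61 and -2.66 on all other arrays. Fabp3, of the fatty acid uptake list, read 2.44 on that array and between -4.18 and -3.48 on the others. The cause was not tested. The part of any of these genes in the lower values of the PPARα targets was not tested.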

How the data were processed

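Liver RNA of 9 samples was measured on single-colour (Cy3) Agilent arrays. Per the file headers, the deposited array files hold processed intensity on a linear scale, with background and spatial trend removed within an array and no scaling between arrays, beside mean and local background intensity and flags. Agilent Feature Extraction 9.5 was used, per the submitters' processing notes, and later steps are not given in the sources used here. The deposited series table held the same intensity values (largest difference 0), linear and not centred, with column medians from 34.2 to 75.6.

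Control spots and outlier spots were left out, spots of a probe were averaged, and log2 values were taken relative to the array's 75th percentile. A probe had to be well above background, in most of its spots, on every array of at least 1 group, and each gene was read by its brightest such probe. Of 41174 probes, RefSeq (GRCm38.p6) named 22951 through an accession, 6659 through a symbol, 3109 through a former symbol and 294 through a gene number, and 8161 kept the files' name. The test was limma 3.58.1 (R 4.3.3; lmFit, then eBayes; two-sided tests) on the 9 arrays together, which left 6 residual degrees of freedom, and p-values were adjusted by Benjamini-Hochberg over all genes of a comparison, with a threshold of 0.05.

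The 9 genes and all lists were chosen with earlier results of these data known. The text names all 9 with every probe, and from each other list the genes called (at most 4 per comparison) and up to 3 more with the smallest p against AAV-GFP. Fgf21 and Cidec were added as the highest of their list against AAV-GFP. Some genes that these rules took are not reported here. Replicate numbers are shared between groups, but the deviations of same-numbered arrays correlated between -0.322 and 0.243, so numbers were not taken as pairs. The arrays' number limits the precision. Alternatives covered background correction, scaling, filters, probe choice, scan day, slide, pairing, the arrays in the fit and leaving out each array.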

Additional observations from a re-analysis of the deposited data

How the results depend on the processing

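All differences named here are log2 differences of the 9 genes, and called means a limma adjusted p under 0.05. Against untreated liver 4 genes were called in AAV-hGRβ. The number was 0 with plain normexp correction, with dim probes kept and with slide as a random block. It was 1 in a fit of only the 6 arrays compared and 2 with quantile normalization or with the mean of a gene's probes. It was 3 with all probes fitted singly and with the probe annotated for Cyp4a31 alone, and 6 with array medians as the scale and within scan day 1. When an array was left out it was 0 to 5, the 5 (without untreated replicate 2) including Ppara and Cpt1a. With a replicate block it was 0 as well, although the numbers do not pair the arrays. Against AAV-GFP the number was 1, Cyp4a14, with array medians as the scale and with scan day as a block, and 0 in each fit that left out an array. Between the control groups it was 0 in every alternative with a test. Over all genes, the counts against AAV-GFP and untreated liver went from 152 and 544 to 13 and 45 (normexp), 29 and 84 (no filter), 254 and 1212 (scan day block), 3 and 4755 (day 1 only), 73 and 59 (slide), 2 and 1 (replicate block), 75 and 341 (6 arrays), and to 34 to 166 and 94 to 1936 when an array was left out. With array medians they were 99 and 584, and the split of higher to lower against untreated liver was 332 to 252 in place of 418 to 126. Between the control groups the count rose from 0 to 4 with array medians and to 1 with quantile normalization, with scan day as a block, within day 1 and without untreated replicate 4. Scaling to array medians moved the median of all genes to -0.33 against AAV-GFP and -0.25 against untreated liver, and the median of the 9 genes to -1.375 and -1.46. The cause of these changes was not tested.

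The median of the 9 genes against AAV-GFP was -0.26 with normexp, -0.42 on scan day 2 and from -1.08 to -0.73 when an array was left out (-0.73 without AAV-hGRβ replicate 2). Against untreated liver it was -0.61 with normexp, -1.45 on scan day 1 and from -1.34 to -0.96 without an array, and between the control groups from -0.43 to -0.23. Signs turned as follows. With normexp the differences from AAV-GFP were 0.44 for Ppara, 0.0036 for Acaa1b, 0.56 for Cpt1a and 0.33 for Ehhadh, Ehhadh was at 0.26 against untreated liver, and between the control groups Acot1 was at -0.14 and Ehhadh at -0.069. With bright local backgrounds replaced before normexp no sign turned. On scan day 2, with 1 array per group and no test, Ppara, Acaa1b and Cpt1a were at 0.33, 0.0080 and 0.26 against AAV-GFP, Ppara and Cpt1a at 0.034 and 0.095 against untreated liver, and Acot1 at -0.38 between the control groups. On day 1 Pdk4 was at 0.16 against untreated liver and Cyp4a10 at 0.053 between the control groups. With slide as a random block (correlation 0.46) Cpt1a was at 0.0033 against AAV-GFP and Acot1 at -0.030 between the control groups. Quantile normalization put Acot1 at -0.053 and Ehhadh at -0.089 there, the replicate block put Acot1 at -0.077, and the probe of Cyp4a31 alone, an alternative chosen after seeing the data, gave 0.061. When an array was left out, Ppara ranged from -0.44 to 0.046 against AAV-GFP, and Pdk4 from -0.46 to 0.10 against untreated liver. Between the control groups Cyp4a10 ranged from -0.43 to 0.0042, Cyp4a14 from -0.35 to 0.10, Acot1 from -0.18 to 0.28 and Ehhadh from -0.034 to 0.23. Of the single differences none called in the main test turned sign. Signal over background limits the probe of Cyp4a31 alone most, with intensities from 28.4 to 294.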
